A study of Arabidopsis thaliana with 24 samples.

Results

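The results below compare WT seedlings of Arabidopsis thaliana that had met shade before (primed shade) with WT seedlings that had not (naive shade), both sampled after the same triggering shade. The comparison used the 2 primed shade and 2 naive shade WT libraries, 4 of 24 in the series, picked by their labels for genotype, history and light. It covered nuclear genes, of which 21181 of 32548 in the table were tested because they reached 1 TPM (a relative abundance that sums to the same total in every library) in at least 2 libraries. All WT seedlings were of the Col-0 accession, and the series also holds pif7-1 and ref6-1 mutants under the same treatments. Primed seedlings, aged 4 days, received 8 h of shade and then 40 h of white light before a final hour in shade, whereas naive seedlings spent the 8 h in white light and were otherwise handled alike. Shade was a lowered ratio of red to far-red light. Primed white and naive white seedlings were controls without the final shade, per the labels, and their comparison shares no library with the shaded pair. RNA came from whole seedlings, so fewer cells of a type and less RNA per cell cannot be told apart. The labels do not say whether the replicates were separate cultures, and p-values therefore measure only the spread between these samples.

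Plants read shade as a fall in the ratio of red to far-red light, which inactivates phytochrome B. The PIF transcription factors released from phytochrome, PIF7 foremost among them, then switch on homeodomain and bHLH factor genes, auxin synthesis and growth genes within minutes to hours. Shade also lowers investment in defence, in which jasmonate, glucosinolates and phenolic compounds take part. A memory of shade would show as a response to the trigger that depends on the earlier exposure.

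The naive shade libraries carried a higher share of organelle RNA than the primed shade libraries. Mitochondrial and chloroplast genes together held 0.195% to 0.216% of TPM in primed shade, against 0.758% to 1.58% in naive shade, and between 0.177% and 1.01% in the other 20 libraries. Transcripts of snoRNA genes summed to 1036 to 1070 TPM in primed shade and 3837 to 4238 TPM in naive shade, where the other 20 libraries reached 2695 TPM at most. Nuclear rRNA genes summed to 3055 to 5115 TPM in primed shade and 5460 to 27126 TPM in naive shade. As a check of the labelled tissue, nuclear light-harvesting genes summed to 103319 to 109174 TPM in primed shade and 93430 to 106257 TPM in naive shade, and 26 of 27 root markers were above 0 in both groups.

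**Figure D1:**
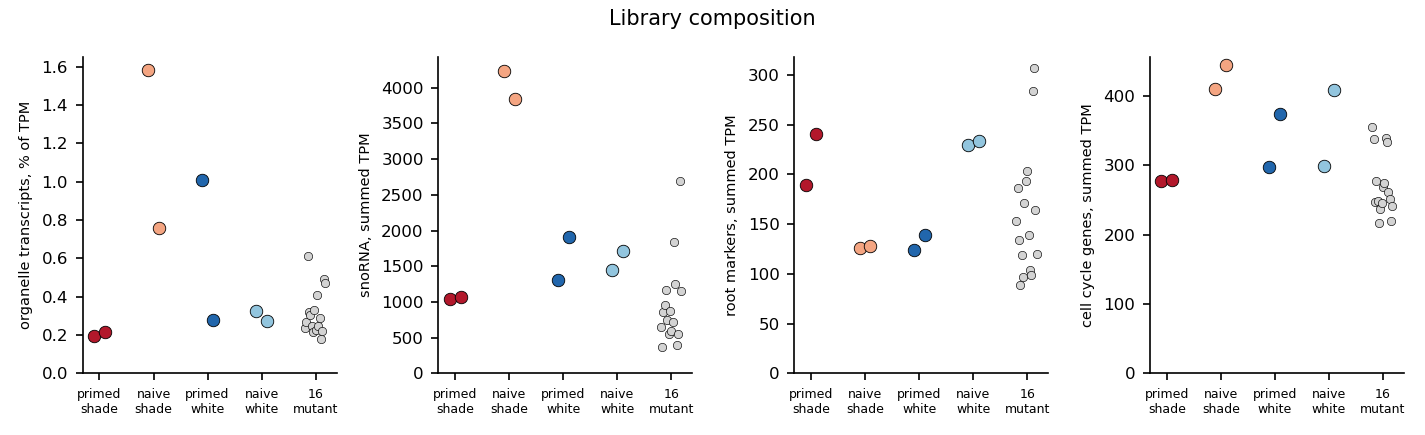
Each panel plots 1 quantity per library: organelle transcripts as percent of TPM, and the summed TPM of snoRNA genes, of 27 root markers and of 21 cell cycle genes. Points are libraries in primed shade, naive shade, primed white light and naive white light of WT, with the 16 mutant libraries in grey. Organelle and snoRNA levels were higher in naive than in primed shade, and root markers were lower. In organelle share primed white replicate 1 (1.01%) lay above naive shade replicate 2 (0.758%).

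Of the tested nuclear genes, 9140 (43.2%) differed between primed and naive shade at an adjusted p under 0.05. Of these 4735 (22.4%) were higher and 4405 (20.8%) were lower in primed shade, and 2423 differed by more than 2-fold on the log2(TPM + 1) scale, which understates changes of low genes. The median difference over all tested nuclear genes was 0.0085. Primed and naive shade libraries did not overlap in 9136 of the called genes and in 75.3% of all tested genes. Leaving out 1 of the 4 libraries at a time left 6486 to 7202 calls. Without naive shade replicate 1, 3075 genes were higher in primed shade. Rescaling TPM to nuclear genes gave 4625 higher and 4569 lower genes. With log2 mitochondrial TPM as a covariate, a quantity that separated the shaded groups, 2571 genes were called, 1678 of them higher, and 9003 of the 9140 kept their sign. The part of the unequal organelle, snoRNA and rRNA content in the results was otherwise not tested.

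The position of the shaded libraries among all 8 WT libraries was also recorded. Among the 4735 genes higher in primed shade, 2896 (61.2%) had both naive shade libraries below the other 6 WT libraries, and 2267 (47.9%) had both primed shade libraries above the other 6. The same positions were held by 19.9% and 14.1% of all tested genes. Among the 4405 genes lower in primed shade, both naive shade libraries lay above the other 6 WT libraries in 2642 (60%), and both primed shade libraries lay below them in 2268 (51.5%). Those positions were held by 16.2% and 15.5% of all tested genes. Gene groups are described below with these positions, which follow in part from the call itself and were not tested.

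**Figure D2:**
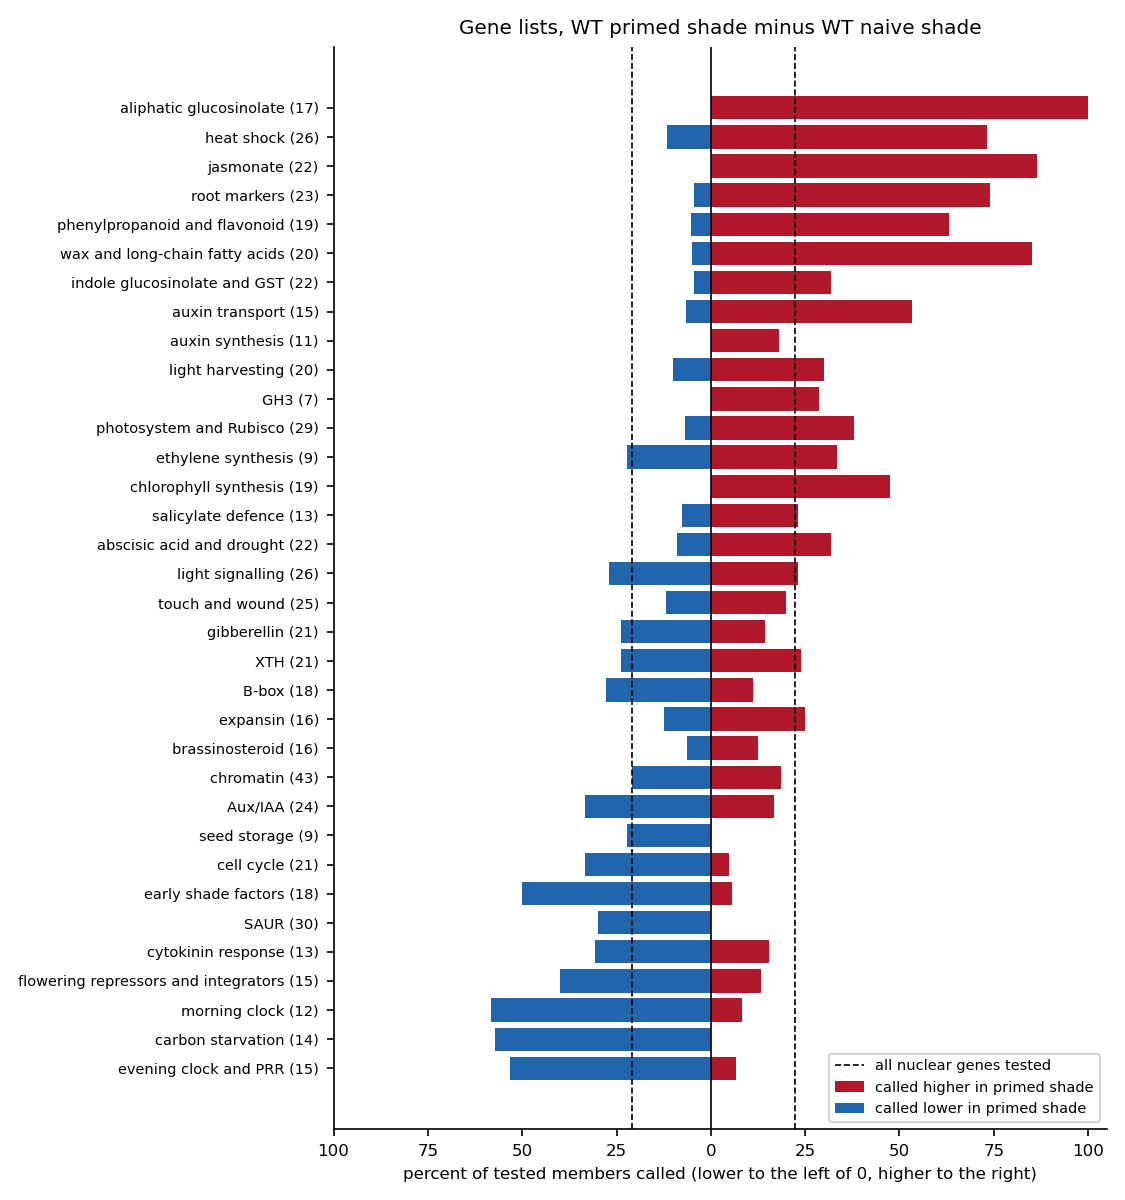
Bars show the percent of tested members of 34 gene lists called higher (right) or lower (left) in primed than in naive shade, with the number tested in parentheses and the lists ordered by their median log2 fold change. Dashed lines mark the share of all tested nuclear genes, 22.4% higher and 20.8% lower; all 17 aliphatic glucosinolate genes were called higher, and evening clock genes stood at the other end.

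Jasmonate genes were higher in primed shade. Of 22 tested genes of jasmonate synthesis, signalling and response, 19 rose and none fell, with a median log2 fold change of 1.1 against 0.0085 for all genes. LOX2 (AT3G45140) encodes the chloroplast lipoxygenase that starts the pathway and had 344 and 351 TPM in primed shade, against 18.6 and 20.3 TPM in naive shade (log2 fold change 4.09, SE 0.43, adjusted p = 5.65e-06). AOS (AT5G42650), for allene oxide synthase at the next step, stood at 223 and 229.6 TPM in primed shade, against 54.6 and 60.1 TPM in naive shade (log2 fold change 1.96). The allene oxide cyclase gene AOC1 (2.37) and OPR3 (1.09), for the peroxisomal reductase, also rose, so every step from lipoxygenase to reductase had called members. Among the classic jasmonate response genes, VSP2 (AT5G24770) for a vegetative storage protein had 84.5 and 67.5 TPM in primed shade, against 2.15 and 2.55 TPM in naive shade (log2 fold change 4.52, SE 0.58, adjusted p = 2.99e-05). CORI3 (AT4G23600), for a cystine lyase, had 29.8 and 31.6 TPM in primed shade, against 1.9 and 1.2 TPM in naive shade (log2 fold change 3.65, SE 0.38, adjusted p = 5.25e-06). VSP1 rose with them (2.53), and the primed and naive shade libraries of LOX2, VSP2 and CORI3 lay far apart.

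Genes of the pathway's regulators were mostly higher too. MYC2, for the bHLH activator of the pathway, had 14.6 and 17.58 TPM in primed shade, against 3.81 and 4.52 TPM in naive shade (log2 fold change 1.73). Of the JAZ repressor genes, JAZ9 (1.6) and JAZ5 (1.0) rose, whereas JAZ10 had 1.78 and 2.31 TPM in primed shade, against 1.67 and 1.67 TPM in naive shade and was not called (log2 fold change 0.18, adjusted p = 0.513). In 17 of the 22 genes both primed shade libraries exceeded the other 6 WT libraries, and in 13 both naive shade libraries lay below them. LOX2, for example, had 73.0 and 110.3 TPM in primed white light and 25.2 and 30.1 TPM in naive white light. Of the 22 genes 14 were still called higher with the mitochondrial covariate, and leaving out any shaded library left 18 or 19.

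**Figure D3:**
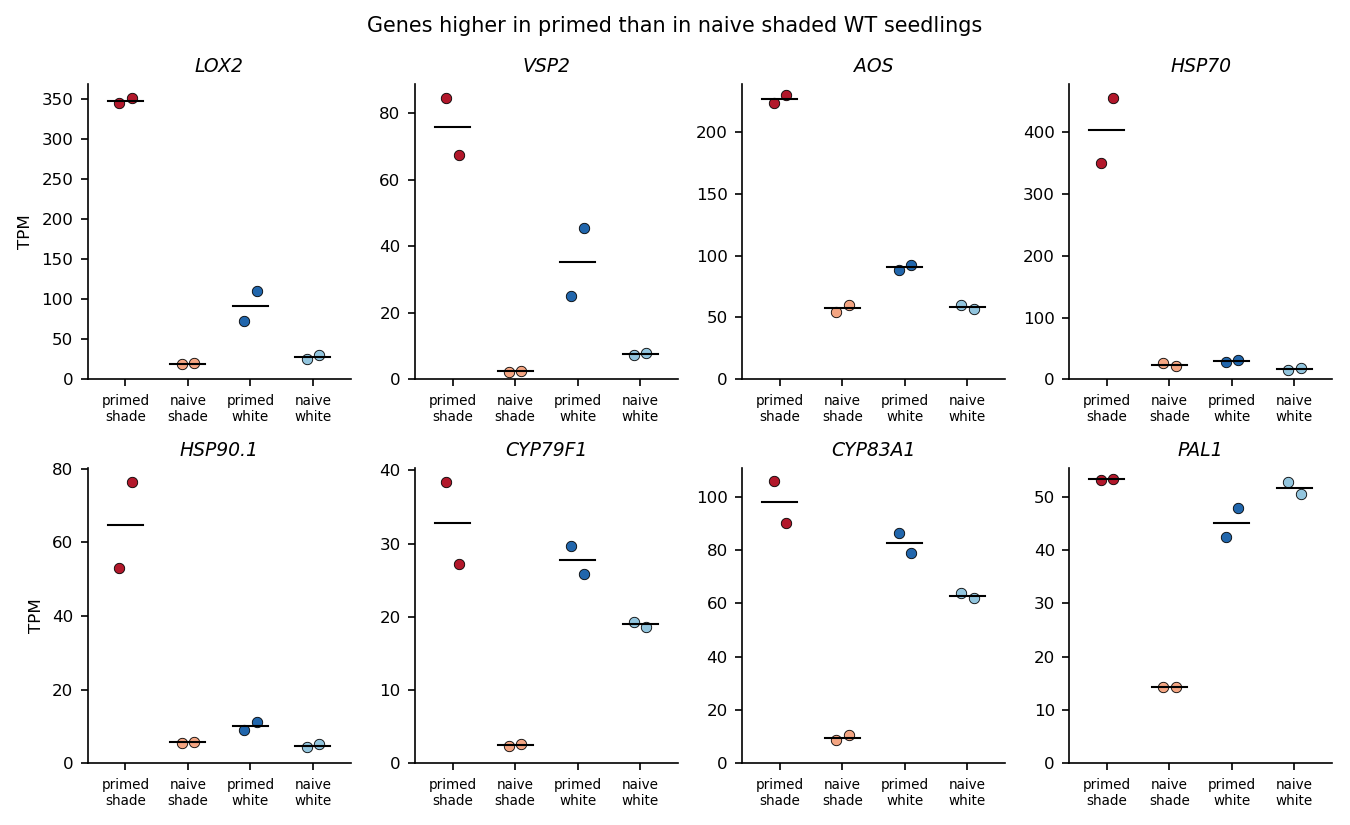
TPM of 8 genes in the 2 libraries of each WT group, with a line at the group mean; panels start at 0. LOX2, VSP2, AOS, HSP70 and HSP90.1 were above all other groups in primed shade, whereas for CYP79F1, CYP83A1 and PAL1 naive shade lay below the other 3 groups.

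Most heat shock genes were higher in primed shade. Of 26 tested genes 19 rose and 3 fell, with a median of 1.51, and in 18 both primed shade libraries exceeded the other 6 WT libraries. HSP70 (AT3G12580), for a cytosolic chaperone, had 350.5 and 455 TPM in primed shade, against 25.9 and 22.01 TPM in naive shade (log2 fold change 4.01, SE 0.18, adjusted p = 1.11e-09). In white light it stood at 27.9 and 30.8 TPM in primed and 15.8 and 17.58 TPM in naive seedlings, so its level in primed shade was reached in no other WT group. ROF2 (AT5G48570), for a co-chaperone of the FKBP family, had 81.6 and 129 TPM in primed shade, against 5.88 and 5.74 TPM in naive shade (log2 fold change 3.93, SE 0.18, adjusted p = 9.13e-10). HSP90.1 (AT5G52640), for a heat-inducible member of the HSP90 family, had 53.1 and 76.5 TPM in primed shade, against 5.53 and 5.8 TPM in naive shade (log2 fold change 3.28, adjusted p = 2.68e-08). HSP90.2 (AT5G56030) had 202 and 228 TPM in primed shade, against 17.3 and 27.1 TPM in naive shade (log2 fold change 3.25). It is a close copy of HSP90.3 (1.35) and HSP90-4 (1.02), between which reads may have been divided, and all 3 were higher.

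The small heat shock genes and their activator showed the same direction. HSP17.8 had 19.99 and 33.0 TPM in primed shade, against 2.74 and 2.01 TPM in naive shade (log2 fold change 2.99), and HSP17.6II (2.83) and HSP23.5 (2.72) rose as well, though members of this family are similar in sequence. HSFA2, for the heat-induced transcription factor, had 11.03 and 15.4 TPM in primed shade, against 2.88 and 2.3 TPM in naive shade (log2 fold change 1.97, adjusted p = 5.92e-05). The disaggregase gene HSP101 had 15.9 and 18.0 TPM in primed shade, against 5.49 and 5.08 TPM in naive shade (log2 fold change 1.51). The 3 genes that fell encode other heat shock factors, HSFA3 (-0.44), HSFB2A (-0.61) and HSFA7A (-0.74), and HSFA1A, for a constitutive activator, had a log2 fold change of -0.02 and was not called. With the mitochondrial covariate 17 genes were called higher and none lower, and 17 or 18 were higher without any shaded library.

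All 17 tested genes of aliphatic glucosinolate synthesis were higher in primed shade, with a median of 2.29. Glucosinolates are sulfur-rich defence compounds of the cabbage family, and the aliphatic ones derive from methionine. MAM1 (AT5G23010), for the chain-elongating methylthioalkylmalate synthase, had 132 and 107 TPM in primed shade, against 15.5 and 16.2 TPM in naive shade (log2 fold change 2.83, SE 0.23, adjusted p = 7.49e-07). CYP79F1 (AT1G16410), for the cytochrome P450 that enters the core pathway, had 38.4 and 27.2 TPM in primed shade, against 2.41 and 2.68 TPM in naive shade (log2 fold change 3.24, SE 0.29, adjusted p = 1.52e-06). CYP83A1 (AT4G13770), for the next P450, had 106 and 90.0 TPM in primed shade, against 8.77 and 10.5 TPM in naive shade (log2 fold change 3.22, SE 0.25, adjusted p = 3.56e-07), and BCAT4, for the aminotransferase at the start of chain elongation, had 80.3 and 52.3 TPM in primed shade, against 7.47 and 6.16 TPM in naive shade (log2 fold change 3.08). The sulfotransferase gene SOT17 (2.64) at the end of the core pathway rose too. IPMI1 (AT3G58990), annotated as an isopropylmalate dehydratase small subunit and outside the list, had 52.0 and 44.1 TPM in primed shade, against 3.67 and 1.87 TPM in naive shade (log2 fold change 3.74, SE 0.37, adjusted p = 3.73e-06).

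The MYB activator genes of the aliphatic pathway were also higher. With the mitochondrial covariate neither MYB28 (adjusted p = 0.0822) nor MYB29 (adjusted p = 0.0607) was called. MYB28 had 44.8 and 39.6 TPM in primed shade, against 19.9 and 29.3 TPM in naive shade (log2 fold change 0.78) and MYB29 had 12.2 and 8.27 TPM in primed shade, against 2.08 and 3.13 TPM in naive shade (log2 fold change 1.63). MYB28 held the smallest change of the list, and the call was lost without primed shade replicate 1 (0.69) or naive shade replicate 1 (0.51). In all 17 genes both naive shade libraries lay below the other 6 WT libraries, and in only 4 did primed shade exceed the other 6. CYP83A1 had 86.3 and 78.8 TPM in primed and 63.8 and 61.9 TPM in naive white light, all above naive shade. The core genes of the indole branch, made from tryptophan, moved the same way: CYP79B2 had 39.2 and 32.9 TPM in primed shade, against 4.29 and 5.3 TPM in naive shade (log2 fold change 2.68), CYP79B3 rose by 2.24, CYP83B1 by 2.17 and SUR1 by 1.66 on the log2 scale. In the list of indole and glutathione transferase genes as a whole, 7 of 22 rose, 1 fell and 14 were not called. The called share of that list was 36.4%, below the 43.2% of all tested nuclear genes. The aliphatic count was 12 with the mitochondrial covariate and 14 to 17 without any shaded library.

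Phenylpropanoid and flavonoid enzymes were also higher in primed shade, 12 of 19 tested genes rising and 1 falling (median 0.89). PAL1 (AT2G37040), for the phenylalanine ammonia-lyase at the entry of the pathway, had 53.2 and 53.3 TPM in primed shade, against 14.3 and 14.4 TPM in naive shade (log2 fold change 1.82, SE 0.13, adjusted p = 2.4e-07), and PAL2 (AT3G53260) had 85.2 and 87.3 TPM in primed shade, against 27.7 and 31.9 TPM in naive shade (log2 fold change 1.51, SE 0.12, adjusted p = 4.23e-07). The chalcone synthase gene CHS had 83.2 and 81.4 TPM in primed shade, against 25.2 and 33.0 TPM in naive shade (log2 fold change 1.48) and the dihydroflavonol reductase gene DFR had 8.85 and 6.68 TPM in primed shade, against 1.5 and 1.49 TPM in naive shade (log2 fold change 1.8). The MYB activator genes MYB12 (0.51) and PAP1 (0.33) were not called. Naive shade was below the other 6 WT libraries in 14 of the 19 genes, as with PAL1, which had 42.5 and 47.8 TPM in primed and 52.8 and 50.5 TPM in naive white light. Adding the mitochondrial covariate left 6 genes higher.

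Genes of cuticular wax and very-long-chain fatty acid synthesis followed, 17 of 20 rising and 1 falling (median 0.79). KCS6 (AT1G68530), for the ketoacyl-CoA synthase that elongates wax precursors in shoots, had 323 and 334 TPM in primed shade, against 122 and 141 TPM in naive shade (log2 fold change 1.32, SE 0.14, adjusted p = 5.91e-06). LACS2 (AT1G49430), for an acyl-CoA synthetase of cutin formation, had 35.1 and 36.7 TPM in primed shade, against 12.7 and 13.9 TPM in naive shade (log2 fold change 1.37, SE 0.13, adjusted p = 2.83e-06). KCS5 rose by 1.24, KCS1 by 1.24 and the alkane-forming gene CER1 by 1.12 on the log2 scale. In white light the same list went the other way, with 11 lower and none higher in primed than in naive seedlings, beside 5.73% and 1.86% of all tested genes. Leaving out any shaded library left 12 to 15 rises in shade, and the mitochondrial covariate left 9.

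The early shade factors were mostly level or lower in primed shade. PIL1 (AT2G46970), a bHLH gene that shade switches on within minutes in seedlings, had 64.6 and 64.9 TPM in primed shade, against 67.8 and 61.2 TPM in naive shade with overlapping libraries (log2 fold change 0.01, SE 0.16, adjusted p = 0.986). In white light it stood at 2.06 and 2.46 TPM in primed and 1.38 and 1.13 TPM in naive seedlings, far below either shaded group. HFR1, for an atypical bHLH that restrains elongation, had 324 and 335 TPM in primed shade, against 264 and 249 TPM in naive shade and was not called (log2 fold change 0.36, adjusted p = 0.238). Of the 18 tested members 9 fell and 1 rose (median -0.34). The homeodomain genes of class II were lower: ATHB2 (AT4G16780) had 148 and 151 TPM in primed shade, against 283 and 279.7 TPM in naive shade (log2 fold change -0.91, SE 0.17, adjusted p = 0.000613), HAT3 (AT3G60390) had 17.3 and 16.9 TPM in primed shade, against 30.6 and 40.7 TPM in naive shade (log2 fold change -1.01), and ATHB4 (AT2G44910) had 6.93 and 5.73 TPM in primed shade, against 15.3 and 20.5 TPM in naive shade (log2 fold change -1.36, SE 0.19, adjusted p = 5.73e-05). PAR1 (AT2G42870), for another atypical bHLH inhibitor, had 15.9 and 20.5 TPM in primed shade, against 43.4 and 49.2 TPM in naive shade (log2 fold change -1.31, SE 0.29, adjusted p = 0.00186). The single rise was PRE3, for a growth-promoting bHLH, with 3.13 and 4.59 TPM in primed shade, against 0.65 and 0.66 TPM in naive shade (adjusted p = 0.0304), and the call was lost without primed shade replicate 1 (1.76), primed shade replicate 2 (1.32), naive shade replicate 1 (1.53) or naive shade replicate 2 (1.54).

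Naive shade libraries lay above the other 6 WT libraries in 10 of these 18 genes, as in 16.2% of all tested genes. ATHB2 stood at 16.7 and 15.7 TPM in primed and 11.1 and 15.8 TPM in naive white light. With the mitochondrial covariate only 2 of the 9 falls were called, and 6 or 7 were called without any shaded library. PIL1, HFR1 and ATHB2 were named after their values were seen.

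**Figure D4:**
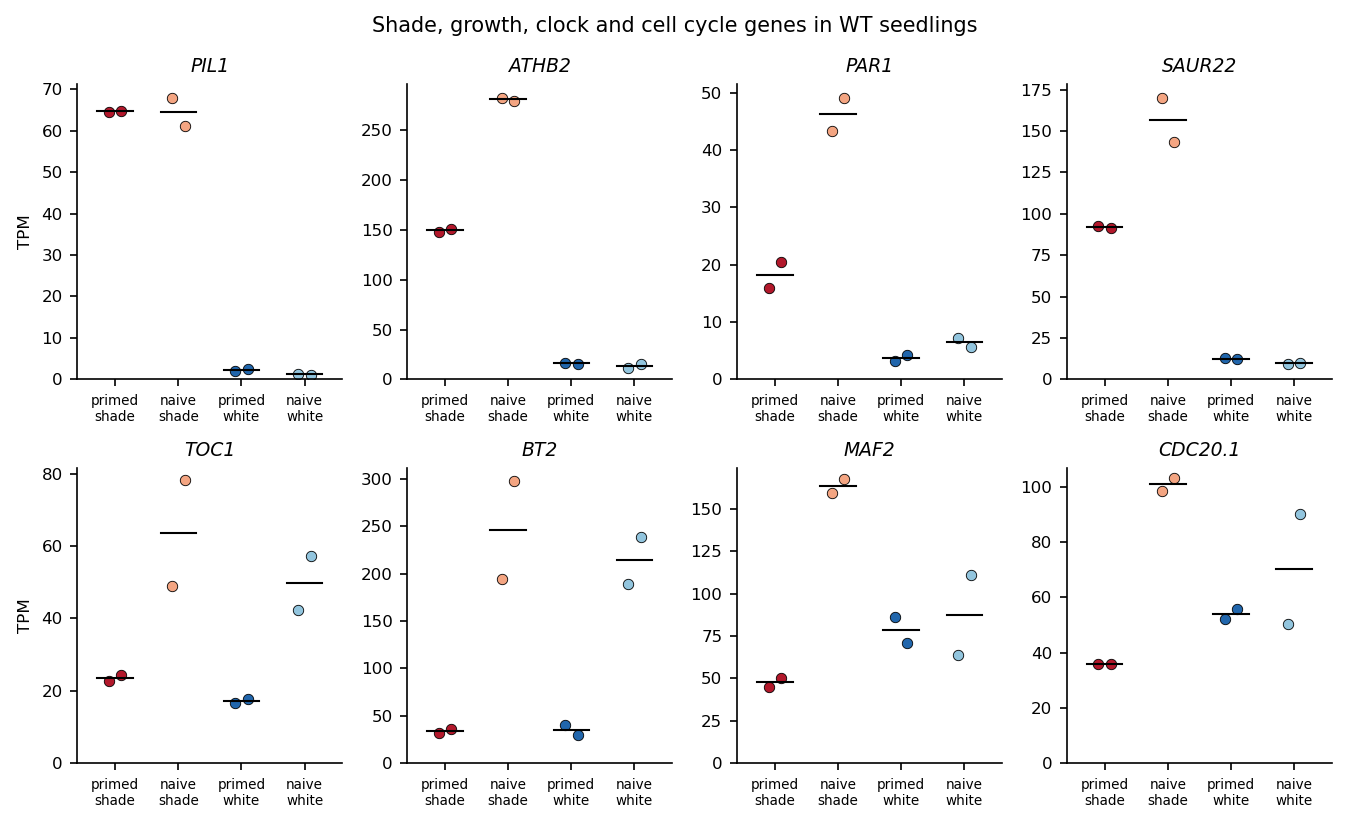
TPM of 8 genes in the 2 libraries of each WT group, with a line at the group mean; panels start at 0. PIL1 was level between primed and naive shade, whereas ATHB2, PAR1, SAUR22, MAF2 and CDC20.1 were highest in naive shade, and TOC1 and BT2 were lower in primed than in naive seedlings in both lights.

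Genes of light perception moved in both directions, 6 of 26 rising and 7 falling, shares near the 22.4% and 20.8% of all tested genes. Only 1 rise and 1 fall were called with the mitochondrial covariate. Rises numbered 3 without primed shade replicate 2 or naive shade replicate 1, and falls 4 without primed shade replicate 1 or 2 or naive shade replicate 2. PIF7 (AT5G61270) had 28.4 and 29.5 TPM in primed shade, against 44.5 and 42.3 TPM in naive shade and fell (log2 fold change -0.57, SE 0.22, adjusted p = 0.044), but it overlaps another annotated gene and the call was lost without primed shade replicate 1 (-0.54), primed shade replicate 2 (-0.60), naive shade replicate 1 (-0.53) or naive shade replicate 2 (-0.60). REF6 (AT3G48430), for the histone demethylase mutated in another line of the series, had 11.3 and 10.7 TPM in primed shade, against 8.96 and 9.86 TPM in naive shade and was not called (log2 fold change 0.20, SE 0.19, adjusted p = 0.4). FHL (AT5G02200), which helps phytochrome A into the nucleus, had 6.97 and 6.93 TPM in primed shade, against 20.08 and 23.1 TPM in naive shade (log2 fold change -1.5, SE 0.29, adjusted p = 0.000744). HYH, for a bZIP factor that promotes light development, had 67.5 and 69.2 TPM in primed shade, against 171 and 146 TPM in naive shade (log2 fold change -1.2), and PHYE, for a phytochrome, fell by 0.90 on the log2 scale. Among B-box factor genes 2 of 18 rose and 5 fell, with BBX7 at 9.65 and 10.3 TPM in primed shade and 21.0 and 29.1 TPM in naive shade (log2 fold change -1.23). Leaving out any shaded library left 1 B-box rise, and fitting WT or the compared libraries alone gave 6. The mitochondrial covariate left 1 rise and 2 falls, and BBX7 was not called under it (adjusted p = 0.29).

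Auxin synthesis genes showed few differences, with a called share below the 43.2% of all tested nuclear genes. Auxin response lists lay on both sides of that share. Of 11 tested synthesis genes 2 rose, the flavin monooxygenase gene YUC2 (0.67) and the anthranilate synthase gene ASA1 (0.86), and none fell. With the mitochondrial covariate no synthesis gene was called. For YUC2 the call was lost without primed shade replicate 1 (0.69), primed shade replicate 2 (0.65) or naive shade replicate 1 (0.51). The shade-induced flavin monooxygenase gene YUC8 had 38.0 and 37.0 TPM in primed shade, against 35.5 and 49.5 TPM in naive shade and was not called (adjusted p = 0.6). The SAUR family is switched on by auxin and acts in elongation growth, and of 30 tested members 9 fell and none rose (median -0.35). The called share of SAUR genes was below the 43.2% of all tested genes, although the share of falls was above 20.8%. SAUR29 (AT3G03820) had 41.9 and 41.9 TPM in primed shade, against 94.2 and 81.9 TPM in naive shade (log2 fold change -1.05, SE 0.25, adjusted p = 0.00287) and SAUR22 (AT5G18050) had 92.4 and 91.3 TPM in primed shade, against 170.1 and 144 TPM in naive shade (log2 fold change -0.76, SE 0.18, adjusted p = 0.00278), and in both genes the shaded groups did not overlap. SAUR19 to SAUR24 are nearly identical in sequence, so their reads may have been misassigned. In 17 of the 30 genes both naive shade libraries exceeded the other 6 WT libraries, as in 16.2% of all tested genes. The count of falls was 3 without primed shade replicate 2 and without naive shade replicate 1, and 0 with the mitochondrial covariate.

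Of 24 Aux/IAA repressor genes, early auxin targets, 8 fell and 4 rose, a called share above the 43.2% of all tested nuclear genes. IAA4 (AT5G43700) had 116 and 109.8 TPM in primed shade, against 209.8 and 235 TPM in naive shade (log2 fold change -0.97, SE 0.16, adjusted p = 0.000213), whereas IAA17 (AT1G04250) had 106 and 110.3 TPM in primed shade, against 57.3 and 47.2 TPM in naive shade (log2 fold change 1.04, SE 0.15, adjusted p = 5.89e-05) with no overlap in either gene. The falls numbered 5 without primed shade replicate 1, 2 without primed shade replicate 2 or naive shade replicate 2, and 0 with the mitochondrial covariate, and the rises 2 without primed shade replicate 2 or naive shade replicate 1. Among 7 GH3 genes of auxin conjugation, DFL1 rose (1.01), as did the jasmonate-conjugating JAR1 (0.29), where the call was lost without primed shade replicate 1 (0.24) or naive shade replicate 1 (0.25). The called share of GH3 genes was below the 43.2% of all tested nuclear genes, and no GH3 gene was called with the mitochondrial covariate. Of 15 auxin transport genes 8 rose and 1 fell (median 0.46), among them the efflux carrier gene PIN5 with 5.23 and 4.38 TPM in primed shade, against 0.65 and 1.55 TPM in naive shade (log2 fold change 1.5) and the influx carrier gene LAX3 (AT1G77690) with 13.2 and 13.3 TPM in primed shade, against 4.81 and 5.15 TPM in naive shade (log2 fold change 1.25, SE 0.16, adjusted p = 3.67e-05). The transporter gene ABCB1 rose too (1.05). The rises in transport genes numbered 2 with the mitochondrial covariate, 5 without primed shade replicate 2 and 4 without naive shade replicate 1.

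Clock genes of the evening group were lower in primed shade, 8 of 15 tested genes falling and 1 rising (median -0.77). TOC1 (AT5G61380), for the evening pseudo-response regulator, had 22.6 and 24.5 TPM in primed shade, against 48.9 and 78.3 TPM in naive shade (log2 fold change -1.36, SE 0.19, adjusted p = 6.64e-05). PRR3 had 4.31 and 4.7 TPM in primed shade, against 10.2 and 15.6 TPM in naive shade (log2 fold change -1.31) and the photoperiod gene FKF1 had 3.63 and 4.03 TPM in primed shade, against 12.1 and 19.2 TPM in naive shade (log2 fold change -1.76). JMJ30 (AT3G20810), for a clock-linked Jumonji demethylase, had 9.52 and 8.65 TPM in primed shade, against 29.5 and 45.0 TPM in naive shade (log2 fold change -1.89, SE 0.30, adjusted p = 0.000154). The day-phased relatives PRR5 (-1.23), PRR7 (-1.09) and PRR9 (-0.77) fell as well, and the evening complex gene ELF3 (-1.28) was lower whereas LUX (-0.11) and ELF4 were not called. In white light 7 of these genes were lower in primed seedlings, beside 5.73% of all tested genes. There 1 gene was higher, PRR9 (white light log2 fold change 1.07), beside 1.86% of all tested genes, and PRR7 (0.94 in white light) was not called. TOC1 stood in white light at 16.7 and 17.79 TPM in primed and 42.3 and 57.3 TPM in naive libraries. In shade, 3 falls were called with the mitochondrial covariate.

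Of 12 genes of the morning MYB and LNK group 7 fell and 1 rose (median -0.44). RVE2 (AT5G37260), for a MYB factor of the CCA1 family, had 82.7 and 81.7 TPM in primed shade, against 331 and 346 TPM in naive shade (log2 fold change -2.03, SE 0.21, adjusted p = 4.94e-06). RVE7 fell by 0.90 on the log2 scale, while LNK1, for a coactivator of clock MYB proteins, had 73.3 and 76.9 TPM in primed shade, against 31.0 and 39.1 TPM in naive shade and rose (log2 fold change 1.09). CCA1 had 139 and 137 TPM in primed shade, against 175 and 171 TPM in naive shade and LHY had 80.2 and 72.6 TPM in primed shade, against 99.2 and 91.2 TPM in naive shade, and neither central gene was called (adjusted p = 0.258 and 0.112). Adding the mitochondrial covariate left 3 falls.

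Genes that respond to low sugar were lower in primed shade, 8 of 14 falling and none rising (median -0.65). BT2 (AT3G48360), for a nutrient-responsive scaffold protein that sugars repress, had 31.6 and 35.8 TPM in primed shade, against 195 and 297 TPM in naive shade (log2 fold change -2.8, SE 0.34, adjusted p = 2.02e-05). DIN1 (AT4G35770), a dark-induced gene, had 81.5 and 131 TPM in primed shade, against 330.3 and 413 TPM in naive shade (log2 fold change -1.83, SE 0.38, adjusted p = 0.00124), and BCAT-2, for an enzyme that degrades branched-chain amino acids, had 2.65 and 3.15 TPM in primed shade, against 12.2 and 14.6 TPM in naive shade (log2 fold change -1.88). DIN2 fell by 1.56 on the log2 scale, but its difference was 0.09 with the mitochondrial covariate, and the call was lost without naive shade replicate 1 (-1.39). BT2 also differed in white light, with 40.7 and 30.2 TPM in primed and 189 and 239 TPM in naive libraries (log2 fold change -2.57). Of the 14 genes 2 were called lower in shade with the mitochondrial covariate and 5 without naive shade replicate 2.

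The MAF family of flowering repressors was lower in primed shade. Of 15 flowering genes tested 6 fell and 2 rose, and the 6 included all 5 MAF genes. MAF2 (AT5G65050) had 45.0 and 50.3 TPM in primed shade, against 159 and 167 TPM in naive shade (log2 fold change -1.76, SE 0.25, adjusted p = 5.84e-05), MAF3 (AT5G65060) had 17.64 and 19.2 TPM in primed shade, against 50.4 and 51.0 TPM in naive shade (log2 fold change -1.41, SE 0.17, adjusted p = 1.87e-05) and MAF1 (AT1G77080) had 48.0 and 51.8 TPM in primed shade, against 114 and 120.3 TPM in naive shade (log2 fold change -1.21). MAF4 (-0.77) and MAF5 (-0.92) fell by less, and so did SVP (-0.56), for another MADS-box repressor. For MAF4 the call was lost without primed shade replicate 1 (-0.65) or naive shade replicate 1 (-0.68), and for MAF5 the call was lost without primed shade replicate 1 (-0.88) or naive shade replicate 1 (-0.76). MAF2, MAF3, MAF4 and MAF5 lie in a cluster of similar genes. FLC, the best known member of the family, had 11.5 and 14.5 TPM in primed shade, against 10.8 and 12.1 TPM in naive shade and was not called (log2 fold change 0.16, adjusted p = 0.599). Without naive shade replicate 1, or with the mitochondrial covariate, 3 falls were called.

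Chromatin genes were divided, 8 of 43 tested rising and 9 falling, shares close to the 22.4% and 20.8% of all tested genes. The rises with the largest change were the ATPase genes of SWI/SNF remodelling complexes, SYD (AT2G28290) with 19.3 and 21.4 TPM in primed shade, against 7.81 and 9.45 TPM in naive shade (log2 fold change 1.15, SE 0.22, adjusted p = 0.000609) and BRM with 19.8 and 20.4 TPM in primed shade, against 8.56 and 9.51 TPM in naive shade (log2 fold change 1.08). JMJ30 and the H2A.Z histone gene HTA8, with 20.5 and 17.5 TPM in primed shade, against 34.5 and 39.5 TPM in naive shade (log2 fold change -0.93), were among the falls. No rise and 2 falls were called with the mitochondrial covariate, and 5 rises without primed shade replicate 2 and 4 without naive shade replicate 1. Among 21 cell cycle genes 7 fell, or 3 with the mitochondrial covariate, and 1 rose, a call lost on leaving out any 1 of the 4 shaded libraries. CDC20.1 (AT4G33270), for an activator of the anaphase-promoting complex, had 35.9 and 36.0 TPM in primed shade, against 98.5 and 103 TPM in naive shade (log2 fold change -1.46, SE 0.27, adjusted p = 0.000459), and CDC20.2 had 15.5 and 17.5 TPM in primed shade, against 48.5 and 48.8 TPM in naive shade (log2 fold change -1.51), neither called with the mitochondrial covariate. The cyclin gene CYCA3;1 fell by less (-0.97). The 21 genes summed to 277 to 279 TPM in primed shade and 410 to 445 TPM in naive shade, where the other 20 libraries held 218 to 409 TPM.

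Called photosynthesis genes of the nucleus leaned higher in primed shade, by small amounts. Called were 44.8% of photosystem, 47.4% of chlorophyll synthesis and 40% of light-harvesting genes, near the 43.2% of all tested nuclear genes. Of all tested nuclear genes 22.4% rose and 20.8% fell. Of 29 photosystem, electron transport and Rubisco genes 11 rose and 2 fell (median 0.19). PSBS (AT1G44575), for the photosystem subunit that triggers heat dissipation of excess light, had 2330.2 and 2187 TPM in primed shade, against 1198 and 1234 TPM in naive shade (log2 fold change 0.89, SE 0.10, adjusted p = 1.3e-05), and RBCS3B, for a Rubisco small subunit, had 11987 and 10554 TPM in primed shade, against 5979.9 and 6596 TPM in naive shade (log2 fold change 0.84). Chlorophyll synthesis genes rose in 9 of 19 cases with none falling, led by GUN5 (AT5G13630), a magnesium chelatase subunit gene with 511 and 497 TPM in primed shade, against 236 and 226 TPM in naive shade (log2 fold change 1.12, SE 0.20, adjusted p = 0.000336). Of 20 light-harvesting genes 6 rose and 2 fell. The rises were led by LHCB2.1 (0.96) and LHCB2.2 (0.79), and LHCB1.4 had 3608 and 3345 TPM in primed shade, against 9159 and 8863 TPM in naive shade (log2 fold change -1.37). Reads of the closely similar LHCB1 and LHCB2 genes may have been misassigned among them. With the mitochondrial covariate 3 photosystem genes and none of the chlorophyll or light-harvesting genes were called higher. Under it 2 chlorophyll genes, 1 light-harvesting gene and no photosystem gene were called lower. Of the 19 chlorophyll genes 11 overlap another annotated gene, and without overlapping genes 3 chlorophyll rises were called. The photosystem rises numbered 7 without primed shade replicate 1 or 2 or naive shade replicate 2, and also with medians centred. The light-harvesting rises numbered 2 without primed shade replicate 1 or naive shade replicate 1, and 3 with medians centred.

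Other hormone lists moved both ways. Called were 55.6% of ethylene, 46.2% of cytokinin, 40.9% of abscisic acid, 38.1% of gibberellin and 18.8% of brassinosteroid genes. The share of all tested nuclear genes was 43.2%. Of 22 abscisic acid and drought genes 7 rose and 2 fell, with RD20 (AT2G33380), for a caleosin induced by drought, at 22.9 and 18.1 TPM in primed shade, against 2.02 and 1.33 TPM in naive shade (log2 fold change 3.01, SE 0.36, adjusted p = 1.87e-05) and the dehydration gene RD22 (AT5G25610) at 305 and 297 TPM in primed shade, against 69.4 and 72.8 TPM in naive shade (log2 fold change 2.07, SE 0.18, adjusted p = 1.16e-06). RD29A, another dehydration gene, rose by 2.05 on the log2 scale. Among 9 ethylene synthesis genes the ACC oxidase gene ACO4 (AT1G05010) had 295 and 283 TPM in primed shade, against 152 and 168 TPM in naive shade (log2 fold change 0.85, SE 0.13, adjusted p = 0.000115), whereas the ACC synthase gene ACS4 (AT2G22810) had 2.62 and 2 TPM in primed shade, against 11.4 and 10.6 TPM in naive shade (log2 fold change -1.87, SE 0.25, adjusted p = 3.81e-05), and in all 3 rose and 2 fell. Of 13 cytokinin genes 4 fell, all of them type A response regulators, and 2 rose. The rises included the type A gene ARR3 (0.69, adjusted p = 0.0455), and the remaining type A genes of the list were not called. Among the falls were ARR9 at 29.7 and 29.4 TPM in primed shade, against 91.1 and 80.4 TPM in naive shade (log2 fold change -1.5) and ARR7 at 7.85 and 7.95 TPM in primed shade, against 17.3 and 16.9 TPM in naive shade (log2 fold change -1.02). For the type A gene ARR15 the call was lost without primed shade replicate 1 (-0.63), naive shade replicate 1 (-0.81) or naive shade replicate 2 (-0.71). The 2 cytokinin rises numbered 0 without primed shade replicate 1 or 2 and 1 without naive shade replicate 1 or 2, and ARR9 was the only fall called with the mitochondrial covariate, where ARR7 stood at -0.26 (adjusted p = 0.708). Of 21 gibberellin genes 3 rose and 5 fell, with the largest change in GA2OX4 (-1.04), for an inactivating oxidase. Of 16 brassinosteroid genes 2 rose, DWF1 (0.39) and BZR1 (0.29), and DET2 fell (-1.16), and none of the 3 was called with the mitochondrial covariate. For DWF1 the call was lost without primed shade replicate 2 (0.36) or naive shade replicate 1 (0.29), and for BZR1 the call was lost without primed shade replicate 1 (0.30), primed shade replicate 2 (0.28) or naive shade replicate 1 (0.21). Gibberellin rises numbered 1 without primed shade replicate 1 or naive shade replicate 1, falls 3 without primed shade replicate 1 and 2 without naive shade replicate 2. Under the covariate 3 abscisic acid genes, RD20 and RD22 among them, and 2 ethylene genes rose, and in the gibberellin list 1 gene fell and none rose.

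The salicylate and wound lists held few calls, 30.8% and 32% of tested members, beside 43.2% of all tested nuclear genes. Of 13 salicylate genes 3 rose and 1 fell, with the transporter gene EDS5 at 1.15 among the rises. Salicylate rises numbered 1 without primed shade replicate 1 or naive shade replicate 1, and with the covariate. Of 25 touch and wound genes 5 rose and 3 fell, led by ERF105, which was listed at 0 in both naive shade libraries and stood at 10.4 and 9.93 TPM in primed shade. The touch and wound rises numbered 3 without primed shade replicate 1 or 2 and 2 without naive shade replicate 1, and falls 1 without primed shade replicate 1. The covariate left 1 rise and no fall among them. Wall-loosening XTH genes rose in 5 and fell in 5 of 21 cases, shares near the 22.4% and 20.8% of all tested genes. Expansin genes rose in 4 of 16 cases, also near that share, and fell in 2. XTH6 (AT5G65730) had 283 and 282 TPM in primed shade, against 116 and 129 TPM in naive shade (log2 fold change 1.2, SE 0.24, adjusted p = 0.000885), whereas XTH5 (AT5G13870) fell (log2 fold change -1.35, SE 0.21, adjusted p = 0.000147), and EXPA5 (AT3G29030) had 61.8 and 56.4 TPM in primed shade, against 30.3 and 30.0 TPM in naive shade (log2 fold change 0.95, SE 0.18, adjusted p = 0.000592). The expansin rises numbered 2 without any of the 4 shaded libraries, and the XTH rises 3 without primed shade replicate 2 or naive shade replicate 2. Under the covariate no expansin gene rose, and 1 XTH gene rose and 2 fell.

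Root markers moved with the groups. Their summed level in the other 20 libraries ran from 88.8 to 307 TPM. Of 23 tested markers of root hairs, endodermis and root transport 17 were higher and 1 was lower in primed shade (median 0.93), and the 27 listed markers summed to 189 to 240.3 TPM in primed shade and 126 to 128 TPM in naive shade. The root hair wall protein gene PRP3 (AT3G62680) had 5.68 and 8.46 TPM in primed shade, against 0.59 and 0.33 TPM in naive shade (log2 fold change 2.45, SE 0.38, adjusted p = 0.000148) and the iron transporter gene IRT1 (AT4G19690) had 9.02 and 9.85 TPM in primed shade, against 3.23 and 1.92 TPM in naive shade (log2 fold change 1.57, SE 0.38, adjusted p = 0.0034). ESB1, for a dirigent-like protein of the endodermis, went the other way (-1.76), and only NRT2.1 was at 0 in all 4 shaded libraries. In white light 3 of the markers were lower and none was higher in primed seedlings, beside 5.73% and 1.86% of all tested genes. The median there was -0.77. The 27 markers summed to 123.8 and 139.1 TPM in primed white and 229.4 and 233.3 TPM in naive white light, so primed white lay near naive shade. The part of root RNA in the other results was not tested. With the mitochondrial covariate, or a minimum of 5 TPM, 9 root markers were called higher, and 11 without primed shade replicate 2. Of 9 tested seed storage genes 2 fell, beside 20.8% of all tested genes, and none rose; 1 fell without primed shade replicate 1 or 2 or naive shade replicate 1, and none with the covariate. CRU2, SESA1, SESA2 and SESA4 were at 0 in all 4 libraries.

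Among the 4391 called protein-coding genes that overlapped no other gene and reached a mean of 10 TPM in primed or naive shade, the largest rises included genes of no list. CYS1 (AT5G12140), for a cysteine proteinase inhibitor, was listed at 0 in both naive shade libraries and stood at 80.4 and 75.9 TPM in primed shade, 53.1 and 52.7 TPM in primed white and 107 and 70.0 TPM in naive white light. JAL10 (AT1G52070), for a jacalin-related lectin, had 15.8 and 28.6 TPM in primed shade, against 0.1 and 0.05 TPM in naive shade (log2 fold change 4.37, SE 0.64, adjusted p = 8.35e-05). The lipid-transfer family gene AT5G46890 had 31.7 and 47.6 TPM in primed shade, against 2.37 and 1.26 TPM in naive shade (log2 fold change 3.85), and its neighbour in name AT5G46900 had 19.3 and 30.0 TPM in primed shade, against 1.54 and 2.55 TPM in naive shade (log2 fold change 3.06). AT4G12520 had 39.0 and 52.2 TPM in primed shade, against 1.74 and 3.17 TPM in naive shade (log2 fold change 3.77). AT3G07230 had 116 and 129 TPM in primed shade, against 0 and 34.8 TPM in naive shade and rested on 1 naive library at 0; it was not called when only the 4 shaded libraries were fitted.

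The largest falls included genes with closely similar copies. AT5G50580, annotated as a subunit of the SUMO-activating enzyme, had 0.22 and 2.82 TPM in primed shade, against 32.6 and 37.2 TPM in naive shade, whereas AT5G50680, under the same name, had 26.3 and 25.9 TPM in primed shade, against 1.34 and 1.01 TPM in naive shade. The pair moved in opposite directions, and reads may have been divided between them. For AT5G50580 the call was lost without primed shade replicate 1 (-3.23) or naive shade replicate 2 (-3.96). AT1G17990, an oxophytodienoate reductase-like gene, had 7.64 and 4.97 TPM in primed shade, against 125 and 106 TPM in naive shade (log2 fold change -4.01), while AT1G18020, with the same description, had 29.4 and 27.04 TPM in primed shade, against 14.4 and 25.7 TPM in naive shade and was not called. ATHSD2 (AT3G47350), for a hydroxysteroid dehydrogenase, had 8.41 and 9.77 TPM in primed shade, against 78.9 and 82.6 TPM in naive shade (log2 fold change -3.02, SE 0.27, adjusted p = 1.61e-06), with no overlap between the groups. The auxin-responsive family gene AT2G37030 had 5.27 and 5.43 TPM in primed shade, against 46.2 and 42.9 TPM in naive shade (log2 fold change -2.84, SE 0.22, adjusted p = 4.2e-07), and the histone H3-like gene HTR11 had 0.5 and 1.14 TPM in primed shade, against 9.21 and 11.9 TPM in naive shade (log2 fold change -2.68). AT4G33980, whose deposited description names a cold-regulated gene as its closest match, had 2.75 and 3.33 TPM in primed shade, against 21.5 and 28.7 TPM in naive shade (log2 fold change -2.68, SE 0.16, adjusted p = 3.85e-08).

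The remaining falls chosen by the same rule were AT1G24996 (-3.57), AT5G46440 (-2.91), AT5G02670 (-2.66) and AT2G05185 (-2.6). AT3G26395 was listed at 0 in the 2 primed shade libraries and in all 4 white light libraries, against 25.8 and 15.1 TPM in naive shade. Of the 24 genes in both directions 21 were called with the mitochondrial covariate, the exceptions being AT3G07230, AT5G50580 and HTR11. Few non-coding genes were higher in primed shade, 96 of 1057 tested lncRNA genes and none of 60 snoRNA genes, beside 22.4% of all tested genes. Lower were 228 of the lncRNA genes and 11 (18.3%) of the snoRNA genes, shares near the 20.8% of all tested genes. Other non-coding types differed from that share. Of 121 genes typed only as ncRNA 67 fell and 5 rose, 59.5% called beside 43.2% of all tested nuclear genes. Of 54 miRNA genes 15 fell and 3 rose (33.3% called). The snoRNA sums are given above. SNOR108 was listed at 0 in primed shade and had 365 and 894 TPM in naive shade, and AT4G39366 and AT4G39363 were listed at 0 in primed shade against 483 and 577 TPM and 303 and 310.5 TPM in naive shade. Among overlapping genes AT3G09275, AT2G08525 and AT1G07901 had the largest rises. These genes are uncertain, being short, non-coding or overlapped, and for AT1G07901, AT4G39366 and AT4G39363 the call was lost without any of the 4 shaded libraries. By gene length, in 5 bins of protein-coding genes, the median difference was -0.00862 in the shortest bin and 0.121 in the longest. Of the genes named above, BCAT4, CHS, HSP101, HSFA3, MYC2, JAZ10, FLC, ELF3, LUX, PIF7, ESB1, LNK1, FKF1, PHYE, ASA1, BCAT-2, BRM, ARR9, DET2, DWF1, BZR1, EDS5, AT3G09275, AT2G08525, AT1G07901 and ERF105 overlap another annotated gene, and a call for them may count reads of the neighbour.

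The last comparison asked whether the effect of history in shade equalled that seen without the trigger. In white light 1607 nuclear genes (7.59%) differed between primed and naive seedlings, 393 (1.86%) higher and 1214 (5.73%) lower, with a median of -0.146. With medians centred these counts were 769 and 667. With only the 4 white light libraries fitted, limma called 0 genes, although 3522 passed an unadjusted p under 0.05. The count of 1607 became 753 without primed white replicate 1, and 472 without primed white replicate 2 and again without naive white replicate 2. Without naive white replicate 1, 225 genes were higher and 2001 lower. Genes called in the same direction in both lights numbered 264, which was 2.89% of the calls in shade and 16.4% of those in white light, and 662 were called in opposite directions. Of these 574 were higher in primed seedlings in shade and lower in white light.

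The difference between the shade and white light effects was called for 7497 genes (35.4%), with 4923 (23.2%) more positive and 2574 (12.2%) more negative in shade. With medians centred the split was 4106 and 4154, and with quantile normalization 4398 and 4002. The median of this difference over all genes was 0.128. Without naive white replicate 1, 1587 genes were more negative in shade. Among genes called in shade, 6204 (67.9%) also passed the test of the difference with the same sign. In the jasmonate list 18 of 22 genes were more positive in shade, with LOX2 at 1.67 in white light and a difference of 2.42 (SE 0.61, adjusted p = 0.00627). The aliphatic glucosinolate list had 13 of 17, the heat shock list 16 of 26, the wax list 14 of 20 and the root markers 19 of 23 genes more positive in shade. Of 15 evening clock genes 2 were more positive and 3 more negative in shade, and TOC1 had a difference of 0.10 and BT2 of -0.24, neither called. SAUR genes were more negative in shade in 11 of 30 cases and more positive in 1.

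**Figure D5:**
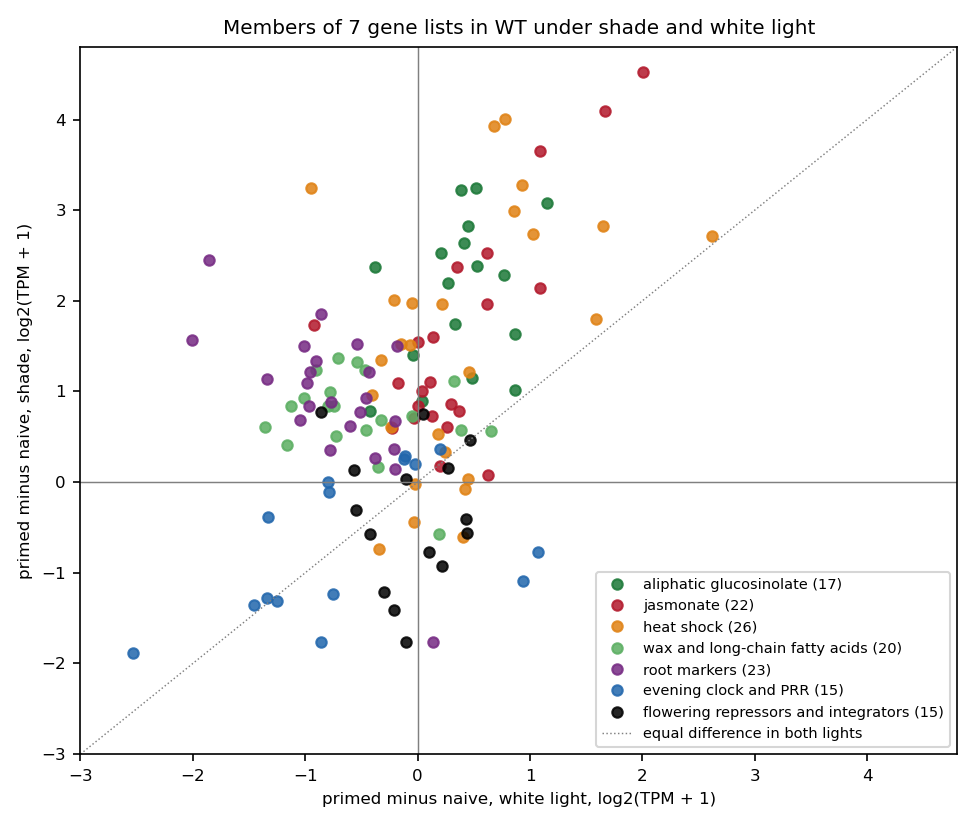
Each point is a tested member of 1 of 7 gene lists, placed by its primed minus naive difference in white light (horizontal) and in shade (vertical), both on the log2(TPM + 1) scale; the dotted line marks equal differences. Jasmonate, heat shock and aliphatic glucosinolate genes lie mostly above the line, root markers and wax genes mostly at the upper left, and several evening clock genes near the line below 0.

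Some of the genes with the largest difference between the lights were called in opposite directions in shade and white light. CYS1, JAL10, AT5G46890, AT1G17990, AT3G26395, ATHSD2 and AT5G46440 were called in shade but not in white light. AT3G05727, for a defensin-like protein, had 292 and 277 TPM in primed shade, against 23.48 and 55.3 TPM in naive shade, but 58.1 and 57.4 TPM in primed white and 329.5 and 239.8 TPM in naive white light (difference 5.21, SE 0.65, adjusted p = 4.1e-05). ATMLP-300B, for a myrosinase-binding-like protein, had 6.01 and 10.4 TPM in primed shade, against 1.32 and 0.65 TPM in naive shade, but 0.42 and 0.36 TPM in primed white and 15.03 and 6.4 TPM in naive white light (difference 5.17). AT3G16670 had a difference of 5.14. In the other direction AT1G52720 had 4.68 and 4.23 TPM in primed shade, against 13.7 and 14.8 TPM in naive shade, but 9.02 and 9.56 TPM in primed white and 1.35 and 2.53 TPM in naive white light (difference -3.32). The leucine-rich repeat gene AT4G16880 had a difference of -4.24, resting on a naive white library at 0, and was not called in shade alone.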

How the data were processed

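Total RNA of whole seedlings was sequenced from libraries made by standard Illumina methods, per the labels' protocols. The deposited values are TPM, made by the authors in 1 table of 24 libraries. The submitters' processing notes name the build TAIR10 and the tools STAR, HTSeq, cutadapt, FastQC and DESeq2, and state no version and no role for them. The route to TPM, its gene lengths and the library strand are not given in the sources used here. Since read counts cannot be had from TPM, sequencing depth and counting error are unknown.

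A linear model was fitted to log2(TPM + 1) by limma 3.58.1 (R 4.3.3), with 12 group means over all 24 libraries, so that all groups share 1 estimate of the spread, and variances moderated with a trend on mean expression. Genes needed 1 TPM in at least 2 libraries (21473 of 33026 rows). p-values were adjusted by Benjamini-Hochberg over all rows tested, and genes passed under 0.05. A number in parentheses after a gene is its log2 fold change, primed minus naive in shade. Values joined by "and" are replicates 1 and 2. With 2 libraries a group, an exact permutation test of 1 value cannot go below 0.333, so none was used. In 34 gene lists 699 entries were matched and 651 tested. Gene names, biotypes and overlaps came from the files and from RefSeq TAIR10.1, which differs from the authors' build, so no positions are given.

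The members and lists were chosen with earlier results of these data known. Named genes were the 12 largest rises and 12 largest falls among called protein-coding genes that overlap no other gene, with separated libraries and a mean of at least 10 TPM in 1 group, up to 4 called members per list (or the 2 with the smallest p), PIF7 and REF6, the 6 largest differences between the lights each way and 3 uncertain genes each way. These others were named after their values were seen: AOS, AOC1, OPR3, MYC2, the JAZ genes, HSP17.6II, HSP17.8, HSP23.5, HSP90.3, HSP90-4, HSP101, the HSF genes, SOT17, MYB28, MYB29, MYB12, PAP1, CER1, PIL1, HFR1, ATHB2, YUC8, PRR5, PRR7, PRR9, ELF3, LUX, ELF4, CCA1, LHY, SVP, MAF4, FLC, ARR3, AT1G18020 and AT5G46900. The procedure was tested on simulated data. Replicate numbers were not found to pair the libraries. A planned search of promoters for motifs was not run, since no promoter sequences were used here. Other settings tried were no filter, a 5 TPM minimum, pseudocounts of 0.1 and 5, quantile normalization, TPM rescaled to nuclear genes, median centring, the replicate block, only WT or only compared libraries, a mitochondrial covariate, no overlapping genes, and each library left out.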

Additional observations from a re-analysis of the deposited data

Results flagged for a closer look

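For each result below, the primed minus naive difference in shade differed from the same difference in white light, in limma's test of that difference at an adjusted p under 0.05. Values are the shade difference minus the white light difference on the log2(TPM + 1) scale, whose median over all tested nuclear genes was 0.128. Genes with their largest values above 0 included CYS1 at 7.01 (a cysteine proteinase inhibitor, listed at 0 in naive shade), the lectin gene JAL10 at 6.29, the lipid-transfer gene AT5G46890 at 5.24, the defensin-like gene AT3G05727 at 5.21, ATMLP-300B at 5.17, AT3G16670 at 5.14, AT4G12520 at 5.05 and AT3G07230 at 4.49. The heat shock genes ROF2 and HSP70 stood at 3.25 and 3.23, and the glucosinolate-linked gene IPMI1 at 2.93. SAE1B-2 (AT5G50680) had 2.65, and the jasmonate genes CORI3, VSP2 and LOX2 had 2.56, 2.5 and 2.42.

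Values below 0 were found for AT1G17990 (-4.60), AT3G26395 (-4.38), AT4G16880 (-4.24), AT5G46440 (-4.12), ATHSD2 (-3.33) and AT1G52720 (-3.32). They were also found for AT5G02670 (-2.75), AT2G05185 (-2.31), the histone gene HTR11 (-2.26), AT2G37030 (-1.94) and AT4G33980 (-1.7). AT3G26395 was listed at 0 in every WT group but naive shade, and AT4G16880 in 1 naive white library.

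Every gene list held members that passed the same test in either direction, beside 35.4% of all tested nuclear genes. There were 20 of 23 root markers, 18 of 22 jasmonate genes, 17 of 26 heat shock genes, 15 of 20 wax genes and 13 of 17 aliphatic glucosinolate genes. Chromatin genes numbered 13 of 43, SAUR genes 12 of 30, and 9 passed in each of the Aux/IAA (of 24), photosystem (of 29), flavonoid (of 19), touch and wound (of 25) and flowering (of 15) lists. In the B-box (of 18), auxin transport (of 15) and indole and glutathione transferase (of 22) lists 8 passed. In the light signalling (of 26), XTH (of 21), morning clock (of 12) and chlorophyll (of 19) lists 7 passed, and 6 did among 16 brassinosteroid genes. There were 5 each among early shade (of 18), ethylene (of 9), evening clock (of 15) and cell cycle (of 21) genes, and 4 each among cytokinin (of 13), abscisic acid (of 22), expansin (of 16) and light-harvesting (of 20) genes. The auxin synthesis (of 11), gibberellin (of 21), salicylate (of 13) and seed storage (of 9) lists had 3, the GH3 list 2 of 7, and the carbon starvation list 1 of 14.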

How the results depend on the processing

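With TPM alone the depth and counting error are unknown, and 2 libraries a group limit the precision. Over all settings no gene called in shade was called in the opposite direction. With the mitochondrial covariate 2571 genes were called in shade, 1678 higher and 893 lower, of which 2425 were among the 9140, and 2921 were called for the difference between the lights; 87 of 180 named genes called in shade lost their call, DIN2 (0.09) and PER1 (0.59) also changing sign. Without overlapping genes, which leaves fewer genes to test, 2782 were lower. With only the compared libraries fitted 0 genes were called in white light, where 3522 had an unadjusted p under 0.05. Leaving out 1 library gave 3075 to 4160 genes higher and 3014 to 3594 lower in shade, and 472 to 2226 genes called in white light; the cause was not tested. The filters, pseudocounts, scalings and WT-only fit gave 8218 to 10011 calls in shade. Centring moved the share of higher genes among the calls from 24.5% to 53.6% in white light, and from 65.7% to 49.7% for the difference between the lights. The promoter motif search was not run.

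The replicate block, with the replicate number in the model, gave 9055 calls in shade, 1538 in white light and 7439 for the difference between the lights, and all 24 genes with the largest changes were called under it. Deviations of same-numbered libraries correlated at 0.0321 between primed and naive shade, so the numbers were not taken to pair the libraries.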

Other observations

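Some gene families outside the lists were grouped by words in their deposited descriptions, after their values had been seen, and are given as counts beside 22.4% higher and 20.8% lower of all tested genes. Genes described as cellulose synthase were higher in primed shade in 11 of 15 cases and lower in 2, with a median log2 fold change of 1.1. CESA3 (AT5G05170), for a catalytic subunit of primary wall cellulose synthesis, had 133 and 142 TPM in primed shade, against 39.5 and 49.6 TPM in naive shade (log2 fold change 1.61, SE 0.14, adjusted p = 9.72e-07). CSI1 (AT2G22125), which links the complex to microtubules, rose by 1.59 on the log2 scale, and both genes overlap another annotated gene. In white light 6 of the 15 were lower and none was higher, beside 5.73% and 1.86% of all tested genes. Aquaporin genes, for membrane water channels, rose in 10 of 16 cases with none falling, led by TIP2-3 (AT5G47450) with 21.0 and 38.8 TPM in primed shade, against 3.38 and 3.15 TPM in naive shade (log2 fold change 2.79, SE 0.58, adjusted p = 0.00118). Of 82 peroxidase genes 35 rose and 5 fell, of 49 lipid-transfer genes 23 rose and 6 fell, and of 12 laccase genes 6 rose and none fell. These families moved in the same direction as the root markers, and the part of root RNA in them was not tested.

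Histone and splicing genes went the other way. Of 43 genes described as histones 22 fell and none rose (median -0.37). HTR12, for the centromeric histone H3, had 5.27 and 4.58 TPM in primed shade, against 10.8 and 12.7 TPM in naive shade (log2 fold change -1.1, SE 0.21, adjusted p = 0.000561). With the mitochondrial covariate neither HTR12 (-0.87, adjusted p = 0.161) nor HTR11 was called. Of 51 splicing genes 23 fell and 3 rose (median -0.31). In white light none of the histone genes and 1 of the splicing genes was called, beside 7.59% of all tested genes. Genes of cytosolic ribosomal proteins were split, with 19 higher and 26 lower of 107 for the 60S subunit, and 19 higher and 16 lower of 86 for the 40S subunit.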
